A study of Mus musculus with 8 samples.

Results

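Interferon-stimulated genes are genes whose transcription is switched on by interferons. Here 10 of them were followed in mouse fetal livers with and without the erythroid transcription factor EKLF, also called KLF1: Irf1, Irf7, Irf9, Isg15, Ifit1, Ifit2, Ifit3, Oas1a, Oasl2 and Gbp7. The members were taken by name, and every probe set whose only gene symbol in the platform annotation was that of a member was used. This gave 10 probe sets for 9 genes, of 18193 genes with such a probe set, with 2 probe sets for Gbp7 and 1 for each of the others. The probe set that reads Isg15 also lists a second symbol, so Isg15 was not analysed here. RNA of whole E14.5 livers was measured on Affymetrix arrays in 4 KO samples (Eklf-/-, replicates 2 to 5) and 4 WT samples (replicates 1 to 4), with no culture and no sorting of cells. The study's methods describe the KO as a B6 line made with a BAC construct of the engineered Eklf locus and E2A-Cre mice, so that the gene is missing from the whole embryo, and give no further treatment of either group. The values are MAS5.0 signals, a measure of hybridization brightness scaled by the authors to the same trimmed mean in every array, and a signal of 100 was used here as the minimum for a gene to be read.

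Interferons are secreted proteins that bind receptors on the cell surface. Type I interferons act through Ifnar1 and Ifnar2, and interferon gamma through Ifngr1 and Ifngr2. The receptors use Janus kinases to activate STAT proteins, Jak1 and Tyk2 at the type I receptor and Jak1 and Jak2 at the receptor of interferon gamma. A STAT complex that holds STAT2 and IRF9 binds the interferon-stimulated response element (ISRE), and the gamma-activated site (GAS) is the element of the response to interferon gamma. The products include proteins that bind or degrade viral RNA, regulators that amplify the response and inhibitors that end it. In fetal liver, where most cells are maturing red cells, the macrophage at the centre of each erythroblastic island takes up expelled nuclei, and undigested DNA in these macrophages is a known trigger of interferon production in mice.

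The promoters of several members carry the letters of these elements, and the stretches around them are shown because they are the sequences through which the family is named. They were read from RefSeq promoter windows (250 bases before to 50 after a gene start, build GRCm38.p6), in which all 10 member genes were found, with 13 windows. The first 4 are the stretches of members whose windows hold the ISRE letters, TTTC, any 2 bases and TTTC again, on either strand, and the last holds the GAS letters TTCNNNGAA, also searched on both strands. Capitals mark the motif letters, and all are written 5′ to 3′ along the strand of the gene.
Gbp7, chr3:142530271-142530304, plus strand: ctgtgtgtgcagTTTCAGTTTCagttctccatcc
Ifit1, chr19:34640773-34640825, plus strand: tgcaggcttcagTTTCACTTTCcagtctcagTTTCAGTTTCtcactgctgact
Ifit3, chr19:34583361-34583428, plus strand: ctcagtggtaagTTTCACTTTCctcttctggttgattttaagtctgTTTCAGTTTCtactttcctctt
Oas1a, chr5:120907526-120907557, minus strand: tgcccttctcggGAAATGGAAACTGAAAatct
Irf1, chr11:53769912-53769944, plus strand: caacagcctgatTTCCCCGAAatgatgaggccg
Ifit1 and Ifit3 each held 2 ISRE matches, and in Oas1a 2 matches on the opposite strand overlapped. The ISRE letters stood in windows of 5 of the 10 genes (these 4 and Isg15). By window this was 5 of 13, against 3.44% of all 32851 windows. The GAS letters stood in windows of 4 genes (Gbp7, Ifit2, Irf1 and Oas1a), or 4 of 13 windows, against 8.30% of all windows. CACCC, the core of the letters that EKLF binds, stood in windows of 8 genes, all but Gbp7 and Oas1a. By window this was 10 of 13, against 57.5% of all windows. A match is a run of letters, not a measured site, and binding was not measured here. The study itself assayed EKLF binding at promoters in E14.5 fetal liver cells by chromatin immunoprecipitation, and those data were not used here.

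Klf1 itself was lower in every KO array, at 10.65 ± 0.11 log2 signal in KO and 13.95 ± 0.076 in WT (SD, n = 4 each), a 9.81-fold difference. The sources used here do not say whether its probe set lies inside the deleted part. The median signal of an array was 96.7 to 114.0 in KO and 79.5 to 84.1 in WT. The hybridization controls, RNAs added at fixed amounts, were lower in KO by 0.75 on the log2 scale (exact two-sided permutation p = 0.029, the smallest that 4 against 4 allows). The 18S probe sets, which read ribosomal RNA, averaged 8.004 log2 signal in KO and 11.90 in WT, and the 3′ minus 5′ difference of Actb, a sign of RNA integrity and priming, was 0.55 in KO and 0.85 in WT (exact two-sided permutation p = 0.029 each). That of Gapdh was -0.20 in KO and -0.16 in WT (exact p = 0.40). The part of the hybridization control, 18S and Actb differences in the results below was not tested. All KO arrays share 1 label code and all WT arrays another, so preparation and genotype cannot be told apart. WT replicate 1 had the signals of a female embryo (Xist at 13.03 log2 signal, against at most 6.84 in the other 7 arrays), and leaving it out kept the same 4 calls described next. In RNA of a whole liver, fewer cells of a type and less RNA per cell cannot be told apart.

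Of the 9 measured interferon-stimulated genes, 4 were higher in KO livers by limma (Benjamini-Hochberg adjusted p under 0.05 over all 23379 probe sets tested): Ifit1, Gbp7, Irf7 and Ifit3. The other 5 (Irf1, Irf9, Ifit2, Oas1a and Oasl2) did not pass, and 3 of these had adjusted p between 0.05 and 0.1. No member was lower by limma or by the methods' t-test, and at an unadjusted p under 0.05 the limma counts were 7 higher and 0 lower. Over all probe sets 34.4% were called higher and 17.7% lower. Taking each gene by its brightest probe set, as was done for the members, 25.5% of 11275 genes were called higher and 21.0% lower. All 9 differences, KO minus WT, were positive, with a median of 0.64 on the log2 scale, against 0.060 over all genes by brightest probe set and 0.17 over all probe sets. In 5 of the 9 genes, by brightest probe set, all KO arrays were above all WT arrays. This held for 32.4% of all probe sets, and the share over genes by brightest probe set was not computed.

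**Figure D1:**
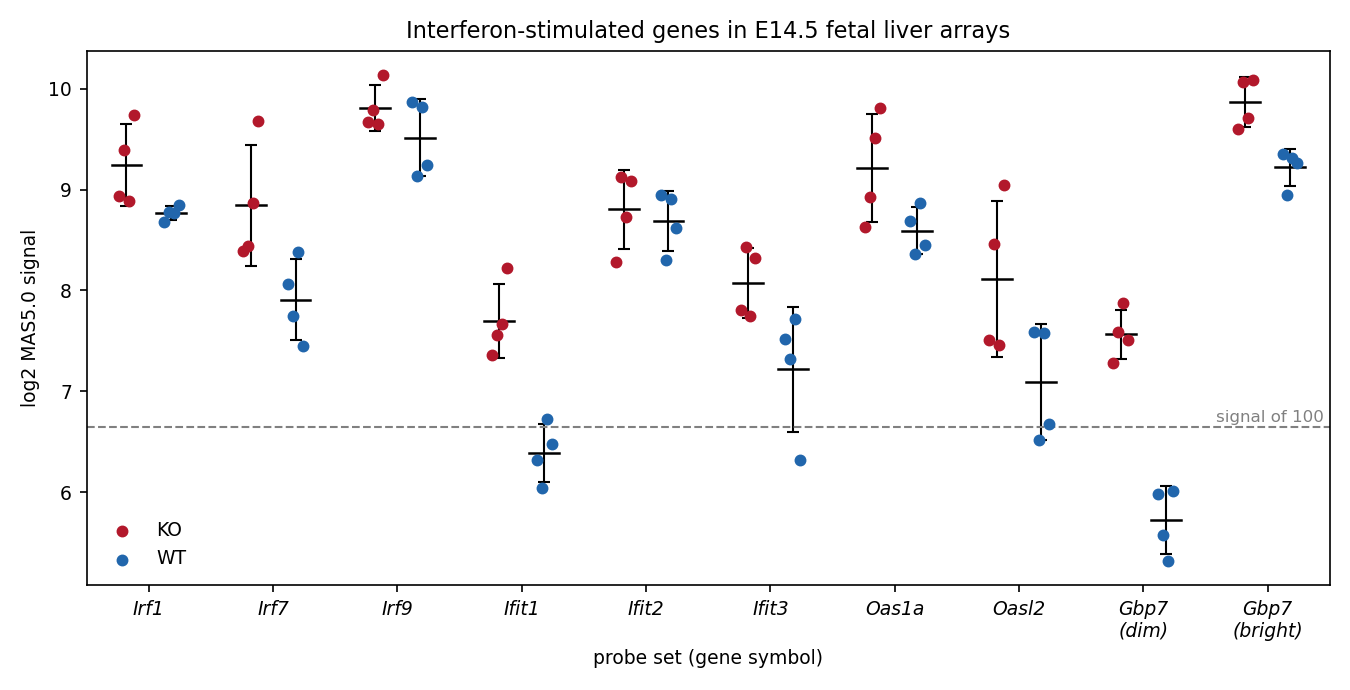
MAS5.0 signal (log axis) of each member's probe set in the 4 KO and the 4 WT arrays, with a point per array, a bar at the group mean of the log2 values and the signal of 100 marked. The KO and WT points are apart for Ifit1 and for both Gbp7 probe sets, nearly touch for Irf1, Irf7 and Ifit3, and overlap for Irf9, Ifit2, Oas1a and Oasl2.

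Among the transcription factors, Irf7, the factor that amplifies type I interferon production, had signals of 336, 346, 467 and 822 in KO replicates 2 to 5, against 268, 215, 333 and 174 in WT replicates 1 to 4. The groups did not overlap, but the lowest KO and the highest WT array nearly met. The difference was 0.94 on the log2 scale (SE 0.31, 95% interval 0.23 to 1.64, limma adjusted p = 0.031), or 1.91-fold. This call rested on single arrays and was lost without KO replicate 4, KO replicate 5, WT replicate 2 or WT replicate 4, with differences of 0.93, 0.66, 0.88 and 0.78.

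Irf1, a factor that interferon gamma induces through the GAS element shown above, had signals of 488, 674, 475 and 857 in KO livers, against 409, 439, 436 and 462 in WT livers. The WT arrays lay close together, and the KO arrays, all above them, were spread over 1.81-fold. The difference of 0.47 (SE 0.19, 95% interval 0.041 to 0.90) did not pass (limma adjusted p = 0.064), although it did without KO replicate 2 (0.57) or without KO replicate 4 (0.59). Irf9, the DNA-binding part of the STAT complex, had signals of 814, 883, 802 and 1124 in KO livers and 932, 563, 900 and 608 in WT livers. The groups overlapped, with only KO replicate 5 above all WT arrays, and the difference was 0.29 (95% interval -0.16 to 0.75, limma adjusted p = 0.24).

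The 3 IFIT proteins bind viral RNA and hold back its translation, and their genes lie on the same chromosome, yet their differences were unlike. Ifit1 had signals of 164, 188, 203 and 298 in KO livers, against 80.0, 65.9, 106 and 89.0 in WT livers. The groups were well apart, and 3 of the 4 WT arrays lay below the signal of 100. Its difference was the largest among the brightest probe sets of the members, at 1.31 (SE 0.21, 95% interval 0.83 to 1.78, limma adjusted p = 0.0010). Because the WT mean was under the minimum, the fold is a bound, at least 2.08-fold higher in KO than a signal of 100. Ifit1 was tested only through its KO mean, and with no filter it was called as well (limma adjusted p = 0.0072).

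Ifit3 had signals of 224, 344, 214 and 319 in KO livers and 184, 159, 210 and 79.7 in WT livers. KO replicate 4 and WT replicate 3 were nearly equal, and WT replicate 4 was below 100. The difference was 0.86 (SE 0.31, 95% interval 0.16 to 1.55, limma adjusted p = 0.042), or 1.81-fold, and the call was lost on leaving out any 1 of KO replicates 2, 3 and 5 or WT replicates 2 and 4, where the difference was 0.56 to 0.95. Mouse Ifit3 has a near-identical neighbouring copy, Ifit3b, and whether the probes also read it was not tested. Ifit2 had signals of 311, 557, 425 and 543 in KO livers and 493, 316, 479 and 392 in WT livers. The groups overlapped through most of their range, and the difference of 0.11 (95% interval -0.39 to 0.61, limma adjusted p = 0.69) changed sign with the scaling, as given below.

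OAS proteins are sensors of double-stranded RNA, and those with enzyme activity make the messenger that switches on RNase L. Oas1a had signals of 395, 486, 729 and 894 in KO livers, against 413, 328, 468 and 349 in WT livers. KO replicates 3, 4 and 5 lay above all WT arrays and KO replicate 2 did not. The difference of 0.63 (SE 0.26, 95% interval 0.045 to 1.21) did not pass (limma adjusted p = 0.067), and it passed at 0.82 without KO replicate 2. Oasl2, an OAS-like protein, had signals of 182, 352, 175 and 527 in KO livers, against 193, 91.3, 191 and 103 in WT livers. KO replicates 3 and 5 were above all WT arrays, while KO replicates 2 and 4 lay within the WT range. Its mean difference was as large as 1.03, but with an SE of 0.41 (95% interval 0.10 to 1.95) it did not pass (limma adjusted p = 0.061), and it passed at 1.23 without KO replicate 2 and 1.25 without KO replicate 4.

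Gbp7, a GTPase of the guanylate-binding family that defends against microbes inside cells, was measured by 2 probe sets. The brighter had signals of 775, 1075, 837 and 1084 in KO livers, against 656, 494, 637 and 614 in WT livers. The groups did not overlap, and the difference was 0.64 (SE 0.15, 95% interval 0.30 to 0.99, limma adjusted p = 0.0073), or 1.56-fold. The dimmer had signals of 156, 192, 234 and 183 in KO livers, against 63.3, 47.8, 39.9 and 64.4 in WT livers, so that all 4 WT arrays lay below 100 and all 4 KO arrays above it. Its fitted difference was 1.84 (SE 0.19, limma adjusted p = 1.0e-04), and the fold against the signal of 100 was at least 1.89. The dimmer probe set was tested only because its KO mean was above 100, so its call adds no separate support. The differences of the 2 probe sets were of unlike size.

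**Figure D2:**
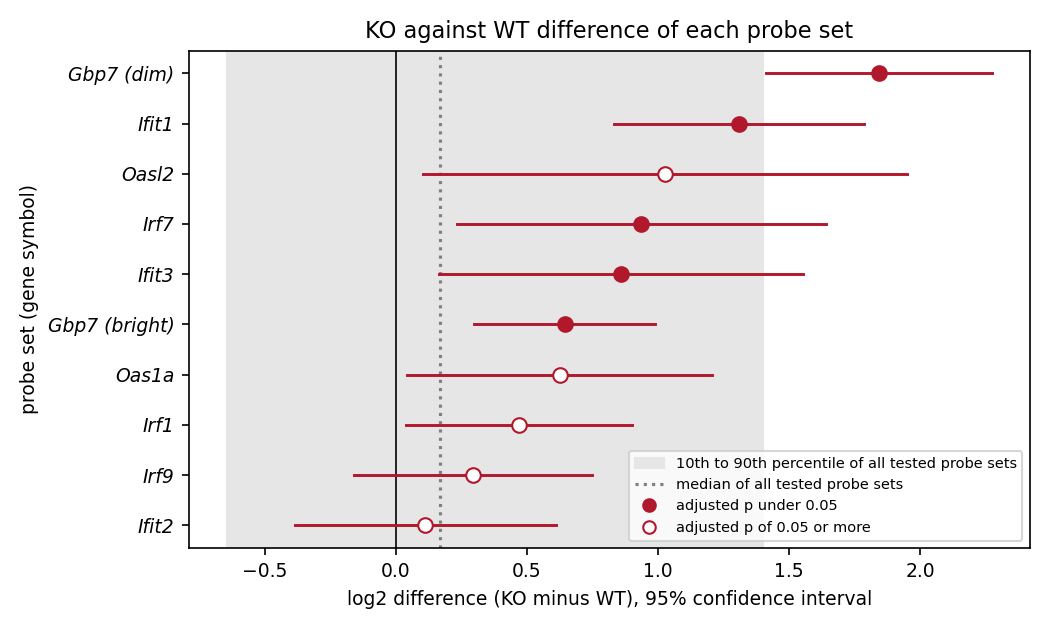
KO minus WT difference in log2 signal for each probe set of the members, with its 95% limma interval, beside the median of all probe sets tested (0.17). The differences of the brightest probe sets run from 1.31 for Ifit1 to 0.11 for Ifit2, and the dimmer Gbp7 probe set lies at 1.84. The intervals of Irf9 and Ifit2 cross 0.

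Ordered by difference, the members ran Ifit1 (1.31), Oasl2 (1.03), Irf7 (0.94), Ifit3 (0.86), Gbp7 (0.64), Oas1a (0.63), Irf1 (0.47), Irf9 (0.29) and Ifit2 (0.11). The 95% interval of each overlapped that of its neighbours in this order. The difference of Ifit1 was larger than that of 88.9% of all probe sets tested, and that of Ifit2 was larger than 46.4%. The Ifit1 value uses a WT mean below 100. With a pseudocount of 64 it was 0.88, still the largest, with Irf7 at 0.79 and Oasl2 at 0.77. The order of the differences was not the order of the calls. Oasl2 varied most between arrays of a group, with a pooled within-group SD of 0.68, larger than that of 95.9% of probe sets, whereas Gbp7, with a smaller difference, had an SD of 0.22. The median SD of the members was 0.35, against 0.23 over all probe sets tested.

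The spread between arrays was also compared between members. When each array was expressed as its deviation from the mean of its own group, all 36 pairs of members had a positive Pearson correlation over the 8 arrays, with a median of 0.66 and a range of 0.21 (Ifit1 and Ifit3) to 0.95 (Ifit2 and Gbp7). These values share arrays and array scaling, and no such value was computed over pairs of other genes. They are given as a description only. In WT livers, replicates 1 and 3 were both above replicates 2 and 4 in 7 of the 9 members, a pattern found in 17.7% of all probe sets tested. In KO livers, replicate 5 was the highest in 7 of 9 members, against 22.9% of all probe sets. These patterns were not planned and were picked with the values in view, so the shares are a description only. KO replicate 2 was the lowest in 5, for which no share over all probe sets was computed. The summed signal of the 9 members was 3689, 4905, 4327 and 6468 in KO replicates 2 to 5, against 3626, 2671, 3759 and 2871 in WT replicates 1 to 4. KO replicate 2 thus lay within the WT range of this sum, and the other 3 KO arrays lay above it.

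**Figure D3:**
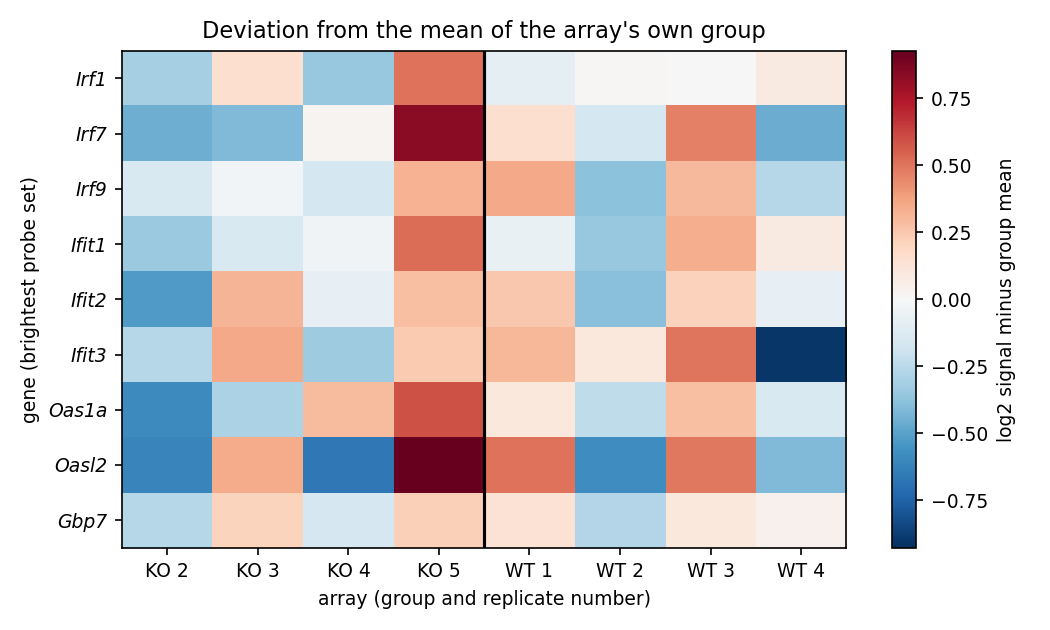
Deviation of each array from the mean of its own group (log2 signal) for the 9 members, KO arrays left of WT arrays. WT replicates 1 and 3 lie above WT replicates 2 and 4 in 7 members, and KO replicate 5 is the highest KO array in 7.

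Irf7 was used to ask which genes varied most like the members between arrays of a group. The 5 highest correlations with Irf7 in these deviations, of 11274 genes, were those of Ptpn18 (a protein tyrosine phosphatase, 0.99), Chid1 (0.98), Stk10 (a serine/threonine kinase, 0.98), Grb10 (an adaptor of growth factor receptors, 0.98) and Sem1 (a proteasome subunit, 0.97). None of these is in the interferon lists used here. Among the members, Oas1a came closest with a correlation of 0.90 and rank 41, followed by Ifit1 (0.80, rank 199), Irf9 (0.76, rank 292) and Oasl2 (0.71, rank 458). The remaining 4 had ranks from 1291 to 1905. With 8 arrays many genes reach high values, so these ranks describe the arrays only.

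Because the scaling of the arrays moves every difference together, the members were also read under 4 other scalings. Under quantile normalization the median of all probe sets was -0.033, the members' median 0.46, and 2 members (Ifit1 and Gbp7) were called higher. With arrays set to the same 75th percentile the values were -0.12 and 0.38, and Ifit1 alone was called. With arrays set to the hybridization controls they were 0.95 and 1.39, and all 9 members were called, as were 76.0% of all genes by brightest probe set. With the poly-A controls, which are added to the RNA before labelling, they were 0.075 and 0.56, and 5 members were called, Oasl2 being added to the 4. Under the deposited scaling 8 of 9 members, all but Ifit2, lay above the median of all probe sets, and the same 8 did under quantile normalization. The other 3 scalings move all values of an array by a single factor, so the place of the members relative to that median could hardly change under them. Ifit2 had a negative difference under quantile normalization (-0.17) and the 75th percentile (-0.15). Of all calls, 66.0% were toward higher under the deposited scaling, against 49.3% (quantile), 40.7% (75th percentile), 97.2% (hybridization controls) and 65.3% (poly-A controls).

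**Figure D4:**
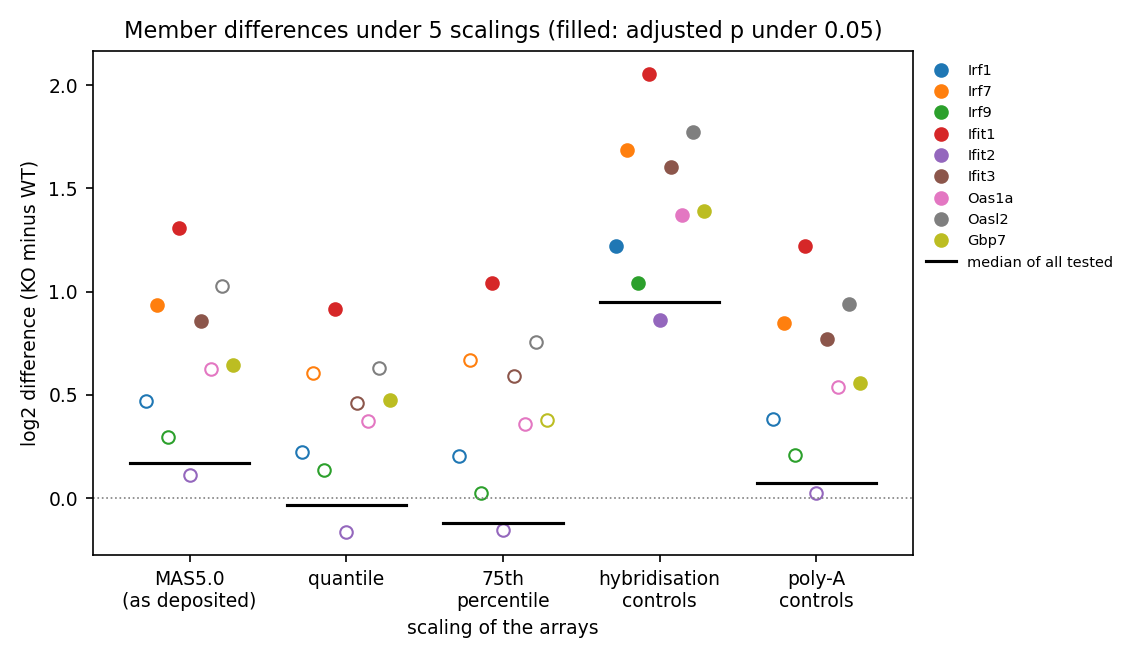
KO minus WT difference in log2 signal of the 9 members under the deposited scaling and 4 others, with the median of all probe sets tested in each. The members shift together with the scaling, and only Ifit2 lies below the median of all probe sets.

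The rest of the interferon pathway was read from 7 gene lists, chosen with earlier results of these data known. Of 116 listed genes 103 had a probe set of a single symbol and 78 were tested, of which 33 (42.3%) were higher, 5 (6.41%) were lower and 40 did not pass. Beside these stand the 25.5% higher and 21.0% lower over all genes by brightest probe set. The count of each list below is to be read beside these shares too. The median difference of the 78 was 0.50. Under quantile normalization the counts were 22 higher and 5 lower, with 16.4% and 26.4% over all genes. With the 75th percentile they were 22 and 8, with 12.7% and 37.4% over all genes.

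The ligands lay below the minimum. Of 8 interferon genes 6 had a probe set, and each was under a signal of 100 on all 8 arrays, so none was tested. Of the receptors and signal transducers, 5 of 10 tested were higher and 0 were lower (75th percentile, 3 and 0). Jak1, the kinase shared by all interferon receptors, averaged a signal of 2698 in KO livers and 1138 in WT livers (difference 1.25, SE 0.13, limma adjusted p = 0.00013). Stat2, which binds IRF9 in the STAT complex, averaged 223 in KO livers and 102 in WT livers (difference 1.13, SE 0.11, limma adjusted p = 7.0e-05), while its second probe set was not called. Among the receptor chains, Ifnar1 averaged 702 in KO livers and 544 in WT livers (difference 0.37, limma adjusted p = 0.014), a call lost under the quantile, 75th percentile and poly-A scalings. The differences of Ifngr1 (0.49), Tyk2 (0.30), Ifnar2 (0.23) and Ifngr2 (0.033) did not pass, and those of Tyk2, Ifnar2 and Ifngr2 were negative under at least 1 other scaling. Further probe sets of these chains did not all give the same reading. A dimmer one of Ifngr2 was called lower (-1.37, SE 0.12, limma adjusted p = 4.2e-05), and of 2 others of Ifnar2, 1 was called higher (0.99, SE 0.13, limma adjusted p = 0.00043) and 1 did not pass (-0.47). Jak2 had a difference of 0.020 by its brightest probe set (limma adjusted p = 0.88) and of 0.67 by its other (SE 0.13, limma adjusted p = 0.0031). Stat3 was called higher by its brightest probe set (0.65, SE 0.18, limma adjusted p = 0.014). Of 3 other tested probe sets of Stat3, 2 were called higher and 1 lower. In the lists below, Mavs and Trim25 were not called by brightest probe set, and each had 1 other called higher.

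Among 12 sensors of nucleic acids and their adaptors, 5 were higher and 1 was lower (quantile normalization, 2 and 1). Ticam1, the adaptor of Toll-like receptor 3, had a difference of 1.04 (SE 0.17, limma adjusted p = 0.0012). Sting1, which relays the detection of cytosolic DNA, had a difference of 0.83 (SE 0.20, limma adjusted p = 0.0075), a call lost under quantile normalization. Aim2, a sensor of cytosolic DNA that triggers the inflammasome, went the other way, with signals of 42.3, 41.2, 64.1 and 53.9 in KO livers, all below 100, against 130.8, 99.7, 112.4 and 103.6 in WT livers (difference -1.16, limma adjusted p = 0.00056, at least 1.11-fold lower). With the hybridization controls Aim2 was not among the probe sets tested. Irf3, the factor activated through Ticam1 and Sting1, had a difference of 0.064 (limma adjusted p = 0.75), which was negative under the quantile, 75th percentile and poly-A scalings.

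Genes that limit the response were mixed, with 2 of 12 higher and 1 lower (75th percentile, 1 and 2). Over all genes by brightest probe set 25.5% were higher and 21.0% lower. Usp18, an interferon-induced protease that removes ISG15 from proteins and blocks the type I receptor, had signals of 452, 554, 566 and 826 in KO livers, against 403, 258, 478 and 263 in WT livers. WT replicates 1 and 3 were again the higher WT arrays, and the lowest KO array lay within the WT range. The difference was 0.79 (SE 0.25, limma adjusted p = 0.027), a call lost under the quantile and 75th percentile scalings, and without KO replicate 3 (0.82), KO replicate 5 (0.62), WT replicate 2 (0.66) or WT replicate 4 (0.67). Pias1, a SUMO ligase that restrains STAT signalling, was higher by 0.79 (SE 0.14, limma adjusted p = 0.0016). Rnaseh2b, a subunit of the RNase H2 enzyme that clears RNA from DNA, was lower with a difference of -1.39 (SE 0.16, limma adjusted p = 0.00017).

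Of 33 further genes induced by type I interferon, 17 were higher and 2 lower, with a median of 0.64 (quantile normalization, 13 and 2). Cxcl10, a chemokine that draws T cells, had signals of 948, 4070, 753 and 1656 in KO livers, against 476, 402, 437 and 451 in WT livers. All KO arrays were above all WT arrays and KO replicate 3 was far above the others. The difference was 1.75 (SE 0.46, limma adjusted p = 0.012), or 3.36-fold. Ifi27l2a had an equal difference of 1.75 (SE 0.44, limma adjusted p = 0.010), with all WT arrays below 100 and KO replicate 2 below it as well, so that the fold is at least 1.59. By brightest probe set, the genes that attach ISG15 to other proteins did not move as a group. Uba7, the activating enzyme, was higher by 1.25 (SE 0.13, limma adjusted p = 9.2e-05), whereas Ube2l6, the conjugating enzyme, was lower, with signals of 1026, 1179, 1014 and 1084 in KO livers and 2856, 3390, 2422 and 2792 in WT livers. The difference of Ube2l6 was -1.41 (SE 0.12, limma adjusted p = 4.4e-05). Herc6, the mouse ISG15 ligase, had a difference of 0.23 that did not pass (limma adjusted p = 0.42) and was negative under the quantile and 75th percentile scalings. Of 3 other tested probe sets of Herc6, 1 was called higher, and so was 1 of 2 others of Uba7. Isg20, an exonuclease, was lower as well (difference -1.09, SE 0.14, limma adjusted p = 0.00036), though not with the hybridization controls.

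Of 10 GTPases and targets of interferon gamma, 3 were higher and 1 lower (quantile normalization, 2 and 1). The count of 3 is near the 25.5% called higher over all genes by brightest probe set. Igtp, a GTPase of the immunity-related family, had signals of 1258, 1194, 1641 and 1602 in KO livers, against 751, 577, 747 and 588 in WT livers (difference 1.09, SE 0.15, limma adjusted p = 0.00053). Iigp1, of the same family, had a difference of 1.02 (SE 0.26, limma adjusted p = 0.010), a call lost under quantile normalization. Ifi30, a lysosomal thiol reductase, was lower (difference -1.08, SE 0.16, limma adjusted p = 0.00067), again not with the hybridization controls. Of 4 other interferon regulatory factors tested, 2 were higher, Irf5 with a difference of 0.65 and Irf8 with 0.58, and neither was called under the quantile or 75th percentile scaling. The call of Irf5 was also lost without KO replicate 3 or any 1 of the WT arrays, with differences of 0.64 to 0.66.

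**Figure D5:**
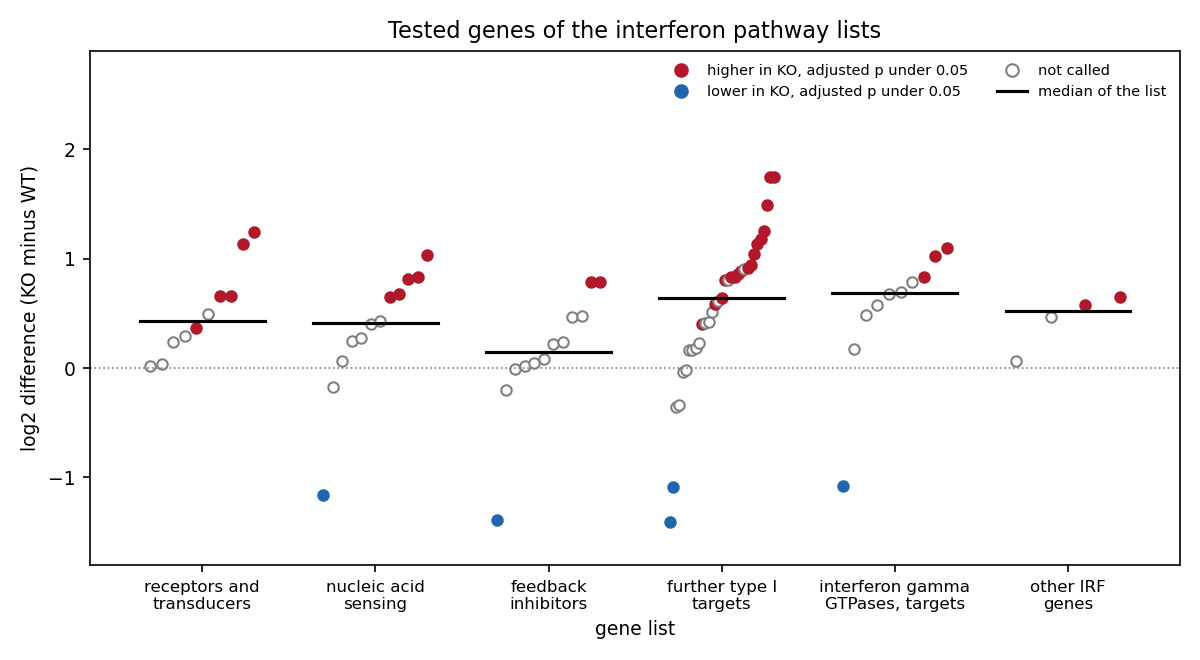
KO minus WT difference in log2 signal of each tested gene in the interferon pathway lists, with a point per gene and a bar at the median of the list. The further type I genes (median 0.64, 17 higher and 2 lower of 33) and the receptors and transducers (median 0.43, 5 higher of 10) lie mostly above 0, and the feedback inhibitors (median 0.15) lie on both sides.

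Markers of other cells differed between the groups too, and their part in the results above was not tested. Over all genes by brightest probe set 25.5% were called higher and 21.0% lower. These shares were 16.4% and 26.4% under quantile normalization, and 12.7% and 37.4% with the 75th percentile. With the hybridization controls they were 76.0% and 2.57%, and with the poly-A controls 15.2% and 15%. Of 13 macrophage markers tested, 0 were higher and 1, Timd4, was lower by limma (0 and 3 under quantile normalization, 0 and 7 with the 75th percentile, 6 and 1 with the hybridization controls, 0 and 3 with the poly-A controls), and their summed signal was 12430 to 23733 in KO livers and 17728 to 21798 in WT livers, with Cd163 below 100 on all arrays. The macrophage sum was 12430, 16273, 14100 and 23733 in KO replicates 2 to 5, and 21798, 18009, 17728 and 19788 in WT replicates 1 to 4. The plasmacytoid dendritic sum was 2122, 2500, 2328 and 3259 in these KO arrays, and 1880, 1655, 1719 and 1617 in these WT arrays. The relation of these sums to that of the members was not tested. Of 3 plasmacytoid dendritic cell markers tested, Bst2 and Irf8 were higher (the call of Bst2 was lost when KO replicate 4, KO replicate 5, WT replicate 2 or WT replicate 4 was left out, and neither gene was called under the quantile or 75th percentile scaling), both of which are also in the interferon lists, while the defining marker Siglech was below 100 on all arrays. Of 10 granulocyte markers, Mpo and Prtn3 were higher and 0 lower. The call of Prtn3 was lost without any 1 of the WT arrays, and with the 75th percentile. The summed signal of the 10 was 49789 to 129536 in KO livers, the highest in KO replicate 5, and 48010 to 56128 in WT livers. Of 3 lymphoid markers tested 0 were higher and 1 was lower, with sums of 455 to 728 in KO livers and 606 to 911 in WT livers, and of 6 stellate cell markers 4 were higher (75th percentile, 2 higher and 1 lower). With the hybridization controls 3 of 4 lymphoid markers tested and 9 of 10 granulocyte markers were higher, where 76.0% of all genes were. Of 12 endothelial markers 9 were higher (5 under the quantile, 75th percentile and poly-A scalings, with 1 lower under the 75th percentile, and 12 with the hybridization controls), summing to 9380 to 11485 in KO livers and 7370 to 7692 in WT livers. All 8 erythroid markers tested were lower (5 to 8 under the other scalings), with sums of 35758 to 39709 in KO livers and 97973 to 106186 in WT livers, and 6 of 9 hepatocyte markers were lower and 1 was higher, with sums of 142713 to 176301 in KO livers and 221676 to 245852 in WT livers. The hepatocyte counts turned with the scaling, to 1 higher and 0 lower (quantile), 0 and 8 (75th percentile), 3 and 0 (hybridization controls) and 0 and 6 (poly-A controls). All marker counts use the brightest probe set of each gene. Other probe sets, 2 of Vcam1 and 1 each of Lyve1, Hnf4a and Slc4a1, were called higher, opposite in direction to the brightest one.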

How the data were processed

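RNA of E14.5 livers was hybridized to Affymetrix arrays, 4 KO and 4 WT. The authors summarized each probe set by MAS5.0, and what they deposited are linear intensities. R 3.0.2 and MAS5 are named in the processing notes of the submitters. The scaling fixes the mean of each array, so a shift in total mRNA moves every difference. Array number limits the precision.

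Of 45101 probe sets, 34945 have 1 symbol, 932 several, 9160 none and 64 are controls. Signals were log2-transformed with no pseudocount, and the 23379 probe sets with a KO or WT mean above 100 were tested with limma 3.58.1 in R 4.3.3 (lmFit and eBayes, genotype as the only term, two-sided, Benjamini-Hochberg adjusted over all of them). The script was tested on simulated data. A gene is given by its brightest probe set. Where a group mean was below 100, the fold is a bound against 100. Such a probe set was tested only because its other group mean was above 100, as for Ifit1, the dimmer Gbp7 probe set, Ifi27l2a and Aim2. No 2 arrays shared more than 1 identical value. Tables were made with Python 3.11.15, numpy 2.4.6, pandas 2.3.3 and scipy 1.17.1.

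Named were all members, Klf1, a fixed set of receptors and transducers, up to 2 called genes each way per pathway list (the largest differences), and the 5 genes most like Irf7. Uba7, Herc6, Jak2, Stat3, Mavs, Trim25 and the marker genes were named after their values were seen. Members and lists were chosen with earlier results of these data known. Alternatives were other scalings, pseudocounts, filters, limma options, the methods' t-test, a replicate block, the mean of a gene's probe sets and leaving out arrays.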

Additional observations from a re-analysis of the deposited data

How the results depend on the processing

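The count of 4 members called higher became 2 under quantile normalization, 1 with the 75th percentile and 9 with the hybridization controls. It was 2 with no filter, 7 with limma's trend and robust options and 2 with the methods' t-test after Benjamini-Hochberg (3 before it). Over all probe sets, 34.4% were called higher in the main setting, 23.3% under quantile normalization and 21.8% with the 75th percentile. The share was 78.9% with the hybridization controls, 15.1% with no filter and 35.4% with limma's trend and robust options. With the methods' t-test it was 26.5% after adjustment and 34.1% before it. Leaving out 1 array gave 2 to 6 members, 2 without KO replicate 5, WT replicate 2 or WT replicate 4 and 6 without KO replicate 2. The share of all probe sets called higher was 30.6% to 33.9% in these fits. In a check chosen after seeing the data, leaving out KO replicates 3 and 5 together gave 2 members. Leaving out WT replicates 2 and 4 together gave 1. In these fits 28.6% and 24.8% of all probe sets were called higher. Of the 38 pathway genes called, the same settings gave 77 with the hybridization controls, 25 with the methods' t-test after adjustment, 24 without KO replicates 3 and 5 and 20 without WT replicates 2 and 4, and leaving out 1 array gave 31 to 46. The difference of Ifit2 was negative under quantile normalization (-0.17), with the 75th percentile (-0.15), without WT replicate 2 (-0.017), without KO replicates 3 and 5 (-0.19) and without WT replicates 2 and 4 (-0.12), where that of Irf9 was -0.030 too. Leaving out 1 array gave Ifit2 differences of -0.017 to 0.29. The causes were not tested. Over 24 alternatives Ifit1 kept its call in all (difference 0.88 to 2.06), Gbp7 lost it in 2, Irf7 in 11 and Ifit3 in 12, while Oasl2 gained one in 7. No member was called lower under any of them. KO and WT arrays share the numbers 2 to 4, but same-numbered arrays did not deviate together (correlations of -0.00084, -0.082 and -0.027). This gave no sign that the numbers pair them, but so few arrays cannot show that they were unpaired. With the number as a replicate block 4 members were called (Ifit1, Ifit3, Oasl2 and Gbp7) and 34 pathway genes. Signals near 100, as for Ifit1 and the dimmer Gbp7 probe set in WT, limit what can be read as a fold.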
